A study of Homo sapiens with 6 samples.

Results

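Hepatocyte identity genes are those whose products let a cell be recognised as a liver cell: the proteins that hepatocytes secrete into plasma, the enzymes and transporters of their metabolism, and the transcription factors that keep these genes on. A set of 39 such genes was taken by gene symbol: 3 of the albumin family, 8 apolipoproteins, 10 plasma carriers and secreted glycoproteins, 11 transcription factors, 4 enzymes of amino acid breakdown, and 3 genes of bile acid transport and its hormone. Each of the 39 symbols stood on a single row of the 60725 rows in every table. Averaged over the 6 libraries, 24 of them reached 1 TPM and were tested among 14781 genes, and the other 15 are described by their values alone. TPM gives a transcript's part of its library after division by transcript length, so levels of different genes can be set beside each other.

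The libraries came from xenografts of MHCC97L, an established line of human hepatocellular carcinoma, grown as a tumour in a host animal. The treated group, rhLUM, held 3 libraries of xenografts that received recombinant human lumican, and the Ctrl group held 3 libraries of xenografts without it. Lumican is a proteoglycan that cells secrete into the extracellular matrix, where it binds collagen, and the comparison asks which tumour transcripts differ when it is supplied. All 6 libraries share the 1 cell line, with no genetic change named. The sources used here do not give the host's strain and age, the site of the graft, or the dose, route and duration. They also do not say if each library is a tumour of its own. The p-values therefore set the group difference against the spread within the groups of these 6 samples and no more, and that spread may be technical.

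In the adult liver these genes are tied together by transcription factors that bind each other's promoters as well as those of the secreted proteins. HNF4A, an orphan nuclear receptor, stands near the centre, with the FOXA factors that open chromatin in the liver bud, the ONECUT factors of liver and bile duct development, CEBPA of the resting hepatocyte, and NR1H4, the bile acid receptor also called FXR. ALB, the gene of albumin, and AFP, the gene of alpha-fetoprotein, arose by duplication and lie side by side. AFP is the form of the fetal liver, is silenced after birth and is made again by many liver cancers.

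The promoters of ALB and AFP are shown because these neighbouring genes differed in their response. Each window is the 250 bases before the gene's start in RefSeq, on the plus strand of GRCh38.p14. The spans that GENCODE gives these genes begin further upstream, by 7173 bases for ALB and 5083 bases for AFP, so both windows lie inside them. Capitals mark matches, on either strand, to the C/EBP motif TTGCNNAA, the FOXA letters TNTTTAC and the TATA box TATAAA.
ALB, chr4:73404037-73404286: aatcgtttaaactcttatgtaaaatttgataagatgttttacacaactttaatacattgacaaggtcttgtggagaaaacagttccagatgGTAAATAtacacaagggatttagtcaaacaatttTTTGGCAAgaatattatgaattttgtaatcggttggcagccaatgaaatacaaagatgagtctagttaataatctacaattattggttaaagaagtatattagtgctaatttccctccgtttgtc
AFP, chr4:73435971-73436220: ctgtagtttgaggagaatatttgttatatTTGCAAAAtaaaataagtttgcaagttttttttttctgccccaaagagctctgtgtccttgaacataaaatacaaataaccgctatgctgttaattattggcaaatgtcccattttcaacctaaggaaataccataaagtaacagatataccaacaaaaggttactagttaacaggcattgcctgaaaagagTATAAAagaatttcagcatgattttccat
The C/EBP letters stood 125 to 118 bases before the start in ALB, on the opposite strand, and 221 to 214 in AFP. The FOXA letters stood 159 to 153 bases before the start in ALB, on the opposite strand, and TATAAA stood 29 to 24 bases before the start in AFP. Matches did not overlap each other in these windows. A window was found for 28 of the 39 members, 37 windows in all. The C/EBP letters were in 7 of the 37 and in 3178 (9.05%) of the 35116 windows of the same length over all genes. The FOXA letters were in 5 of the 37 and 9.58% of all windows, the HNF4 letters AGTCCA in 4 and 9.63%, and TATAAA in 8 and 10.7%. These matches describe the letters of the windows and are not sites.

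With rhLUM most of the hepatocyte genes that could be tested were higher, and a few were lower. Of the 24 tested, 18 were higher and 2 lower at an adjusted p under 0.05, from limma on log2(TPM + 1) with adjustment over all 14781 genes. Of all genes tested, 44.5% were called higher and 22.3% lower. The median change of the 24 was 0.48 in log2(TPM + 1), as rhLUM minus Ctrl, and that of all genes was 0.16. All fold changes below are in these units. ITIH2, ALB, RBP4, HNF4A, TTR and APOH changed by at least 1, a doubling of TPM + 1, and after median-of-ratios scaling the changes of RBP4, HNF4A, TTR and APOH were 0.94, 0.88, 0.90 and 0.80. For FOXA3, ONECUT2 and HPD the ratio of the mean TPM was also over 2, at 2.46, 2.35 and 2.11. APOC1 and NR1H4 were lower, and AFP, APOE, TAT and TDO2 were not called. The 3 rhLUM libraries lay wholly above or wholly below the 3 Ctrl libraries for 21 of the 24, and the same was true of 71.4% of all genes.

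TPM shares out a fixed sum, so the median gene's rise depends on what else fills the library. Mitochondrial genes held 14.5%, 14.5% and 14.3% of TPM in rhLUM libraries, against 20.5%, 20.6% and 20.7% in Ctrl libraries. Median-of-ratios scaling, which sets the typical gene to no change, moved the median of all genes by -0.18 and called 14 of the 24 higher and 4 lower, against 32.7% and 32.5% of all genes. The median of the 24 was then 0.31 and that of all genes -0.02. AHSG, FOXA2, ONECUT1 and PROX1 were no longer called higher under that scaling, and AFP and TDO2 were called lower.

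Together the 39 genes held 0.166%, 0.167% and 0.163% of TPM in rhLUM libraries, against 0.0789%, 0.0761% and 0.0768% in Ctrl libraries. The difference was 0.0881 percentage points (exact permutation test, two-sided p = 0.1, the smallest that 3 against 3 libraries can give). ALB made up 49.9 ± 0.34% of the members' TPM in rhLUM and 37.4 ± 1.02% in Ctrl (SD, n = 3 each). Without ALB the members' share was 0.0828 ± 0.00045% in rhLUM and 0.0484 ± 0.0017% in Ctrl. ALB, ITIH2, APOH and AMBP together made up 80.2 ± 0.30% of the members' TPM in rhLUM and 60.6 ± 0.63% in Ctrl.

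**Figure D1:**
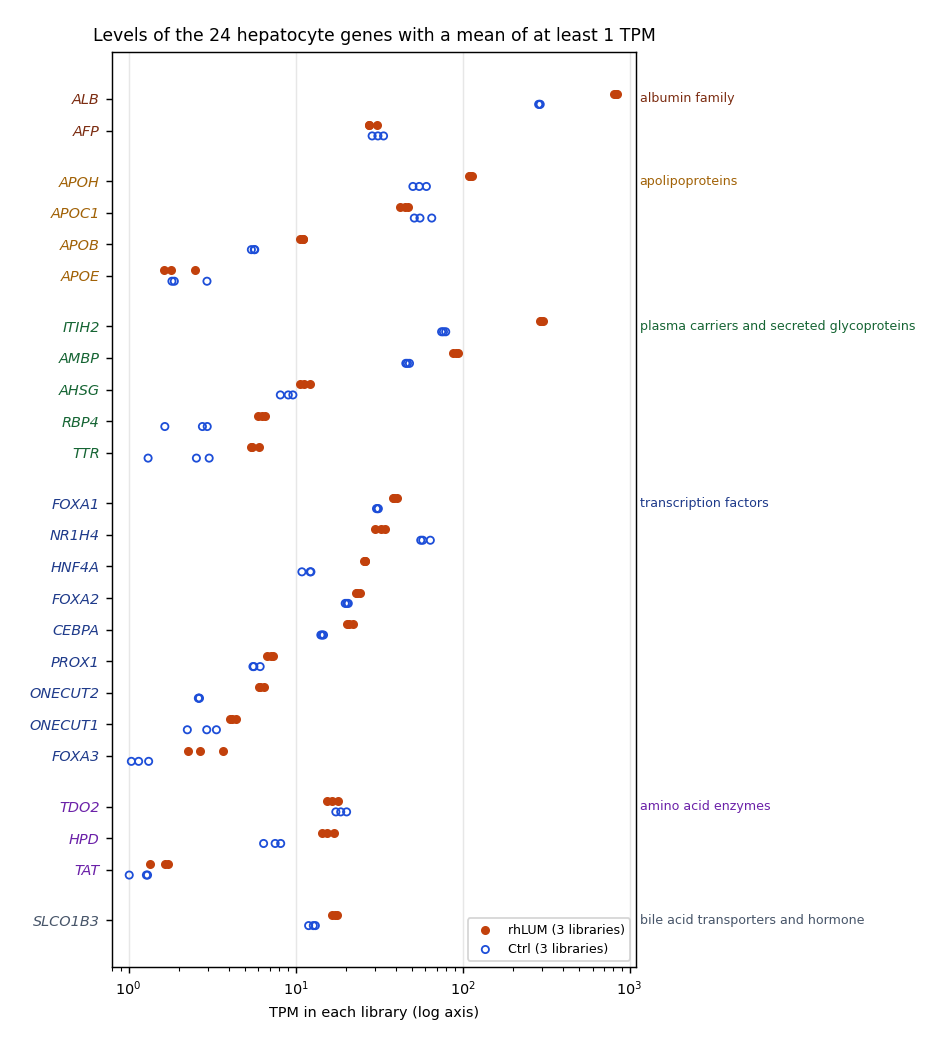
Level of each of the 24 tested hepatocyte genes in TPM on a log axis, with 1 point per library, filled for the 3 rhLUM libraries and open for the 3 Ctrl libraries, ordered by role and by the rhLUM mean. ALB in rhLUM libraries lies farthest to the right at 809 to 839 TPM, and points of both groups interleave for AFP, APOE and TDO2.

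The libraries resembled each other within groups. Rows above 0 TPM numbered 22323 to 22916 in rhLUM libraries and 23525 to 24060 in Ctrl libraries, and TPM keeps no depth, so the depth behind each value is unknown. Across genes, which are not independent replicates, Pearson's r of log2(TPM + 1) was 0.978 to 0.983 within groups (6 pairs) and 0.928 to 0.935 between groups (9 pairs). In a bulk sample fewer cells of a type and less RNA per cell cannot be told apart. Markers of 6 other cell types were summed in each library. Cells of the host would carry the host's genes, while reads were aligned to the human build, so the sums cannot count host cells. They may hold tumour transcripts or host reads that resemble human ones, and which of these was not tested. The 8 cholangiocyte markers summed to 593 to 617 TPM in rhLUM and 507 to 510 in Ctrl, with 2 higher and 2 lower of the 6 tested. The 8 fibroblast markers summed to 102 to 113 TPM in rhLUM and 38.2 to 41.9 in Ctrl, most of it LUM, the lumican gene itself, at 92.1 to 99.1 TPM in rhLUM and 23.6 to 26.5 in Ctrl. DCN, the related proteoglycan decorin, went the other way, at 1.24, 1.59 and 0.96 TPM in rhLUM libraries, against 8.34, 7.65 and 7.88 TPM in Ctrl libraries (log2 fold change -1.99, limma adjusted p = 8.2e-06). The 8 endothelial markers summed to 27.5 to 32.2 TPM in rhLUM and 22.9 to 24.3 in Ctrl, with CLEC4G at 0 in all 6. PECAM1, an adhesion protein of endothelium and some blood cells, was at 23, 24.96 and 27.84 TPM in rhLUM libraries, against 16.21, 16.32 and 16.75 TPM in Ctrl libraries (log2 fold change 0.59, limma adjusted p = 2.55e-04). CDH5, the cadherin of endothelial junctions, was at 0.43, 0.41 and 0.51 TPM in rhLUM and 2.71, 3.37 and 3.21 TPM in Ctrl, and reached the minimum through the Ctrl libraries alone. The 8 macrophage markers summed to 298 to 302 TPM in rhLUM and 214 to 216 in Ctrl, nearly all of it LYZ and CD68, with MARCO at 0 and 6 of the 8 below 1 TPM in every library. The 8 lymphocyte markers summed to 2.84 to 4.76 TPM in rhLUM and 0.81 to 1.66 in Ctrl, with CD2, MS4A1 and NKG7 at 0. The 7 erythroid markers summed to 2.09 to 2.91 TPM in rhLUM and 3.09 to 3.51 in Ctrl, with AHSP at 0. The part of these markers, and of the mitochondrial share, in the changes of the hepatocyte genes was not tested.

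ALB carried the highest level of any member and rose, while AFP beside it did not pass the test. ALB, on chromosome 4 at 73397114 to 73421412 (GRCh38, plus strand, protein coding), stood at 829, 839 and 809 TPM in rhLUM libraries, against 286, 289 and 292 TPM in Ctrl libraries. All 3 rhLUM libraries lay far above all 3 Ctrl libraries, and the ratio of the means was 2.86. On the log2 scale it changed by 1.51 (SE 0.02, limma adjusted p = 1.63e-08) and 1.31 after median-of-ratios scaling. By level it was between the 158th and the 164th gene of an rhLUM library and between the 405th and the 417th of a Ctrl library.

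In GENCODE the span of AFP, 73431138 to 73456174 on the same strand, begins 9725 bases past that of ALB, and the start that RefSeq gives AFP lies further on. It stood at 27.5, 27.4 and 30.8 TPM in rhLUM libraries, against 28.8, 33.7 and 31.1 TPM in Ctrl libraries, and the groups overlapped. It changed by -0.12 on the log2 scale (SE 0.07, limma adjusted p = 0.178), and after median-of-ratios scaling it was -0.31 (adjusted p = 0.00594), so it was called lower after that scaling and not before it. ALB exceeded AFP by 30.2, 30.6 and 26.2 times in rhLUM libraries, against 9.93, 8.58 and 9.37 times in Ctrl libraries, a ratio that no scaling of a whole library alters. GC, the vitamin D binding protein of the same family, was at 0.05, 0 and 0 TPM in rhLUM and 0.08, 0 and 0 TPM in Ctrl.

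The plasma carriers and secreted glycoproteins that were tested all rose, 5 of 5, with a median change of 1.05, and 4 of 5 were higher after median-of-ratios scaling. Of all tested genes, 44.5% were higher before and 32.7% after that scaling. ITIH2, a heavy chain of the inter-alpha-trypsin inhibitors that are linked to hyaluronan in the matrix, had the largest change of any member. It stood at 297, 303 and 290 TPM in rhLUM libraries, against 79.3, 74.9 and 76.9 TPM in Ctrl libraries, with no overlap. On the log2 scale it changed by 1.93 (SE 0.03, limma adjusted p = 2.78e-08).

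AMBP encodes the precursor of bikunin, the light chain that those heavy chains are joined to, and of alpha-1-microglobulin. Its level was 91.8, 88.1 and 93.7 TPM in rhLUM libraries, against 48.1, 45.8 and 46.8 TPM in Ctrl libraries. The groups stood well apart, with a log2 fold change of 0.94 (SE 0.04, limma adjusted p = 1.14e-06). The other heavy chains did not share this level. ITIH1 was at 0 in all 6 libraries, and ITIH3 was at 0.06, 0.06 and 0 TPM in rhLUM and 0.63, 1.34 and 0.76 TPM in Ctrl, under the minimum for the test. Fitted with no minimum, ITIH3 was lower by limma (log2 fold change -0.86, adjusted p = 0.0047). ITIH4, a relative from the list of other secreted proteins, stood at 1.30, 0.61 and 1.46 TPM in rhLUM libraries, against 3.25, 4.11 and 4.32 TPM in Ctrl libraries (log2 fold change -1.22, SE 0.19, limma adjusted p = 0.001).

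TTR and RBP4 encode transthyretin, which carries thyroid hormone, and the retinol carrier that travels bound to it. TTR was at 5.50, 5.42 and 6.03 TPM in rhLUM libraries, against 1.31, 2.55 and 3.04 TPM in Ctrl libraries (log2 fold change 1.05, SE 0.20, limma adjusted p = 0.00291). RBP4 was at 6.58, 6.26 and 5.98 TPM in rhLUM libraries, against 2.96, 1.65 and 2.77 TPM in Ctrl libraries (log2 fold change 1.09, SE 0.16, limma adjusted p = 6.95e-04). The Ctrl libraries spread more than the rhLUM libraries for both, and neither pair of groups overlapped.

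AHSG, the mineral-binding glycoprotein fetuin-A, moved least of these. It stood at 10.7, 12.2 and 11.3 TPM in rhLUM libraries, against 8.11, 9.64 and 9.05 TPM in Ctrl libraries (log2 fold change 0.32, SE 0.08, limma adjusted p = 0.0102). After median-of-ratios scaling its change was 0.14 (adjusted p = 0.171), so its call rests on the scaling.

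Apolipoproteins, the protein parts of plasma lipoproteins, went both ways: of 4 tested, 2 were higher and 1 lower, before and after median-of-ratios scaling. Over all genes the shares were close to these, at 44.5% higher and 22.3% lower before that scaling. APOH, beta-2-glycoprotein I, which binds phospholipids, stood at 109, 115 and 111 TPM in rhLUM libraries, against 60.7, 50.4 and 55.1 TPM in Ctrl libraries (log2 fold change 1.00, SE 0.07, limma adjusted p = 1.10e-05). APOB, the scaffold of very low density lipoprotein, stood at 11.1, 11.1 and 10.7 TPM in rhLUM libraries, against 5.44, 5.66 and 5.70 TPM in Ctrl libraries (log2 fold change 0.85, SE 0.06, limma adjusted p = 1.33e-05). For both genes every rhLUM library was above every Ctrl library by a wide margin.

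APOC1, a small exchangeable apolipoprotein that inhibits lipoprotein uptake, was lower. It stood at 47.3, 42.3 and 45.3 TPM in rhLUM libraries, against 65.4, 55.6 and 51.4 TPM in Ctrl libraries, so the groups came close without overlapping. It changed by -0.34 on the log2 scale (SE 0.09, limma adjusted p = 0.0114), with -0.54 after median-of-ratios scaling. Reads of its near-identical pseudogene APOC1P1, listed at 0 to 0.75 TPM, could be shared with it. APOE, the ligand for lipoprotein receptors that lies upstream of APOC1, was at 1.63, 2.49 and 1.8 TPM in rhLUM and 2.95, 1.82 and 1.88 TPM in Ctrl (log2 fold change -0.11, SE 0.18, limma adjusted p = 0.629). Its groups overlapped, and without Ctrl replicate A the change was 0.05.

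**Figure D2:**
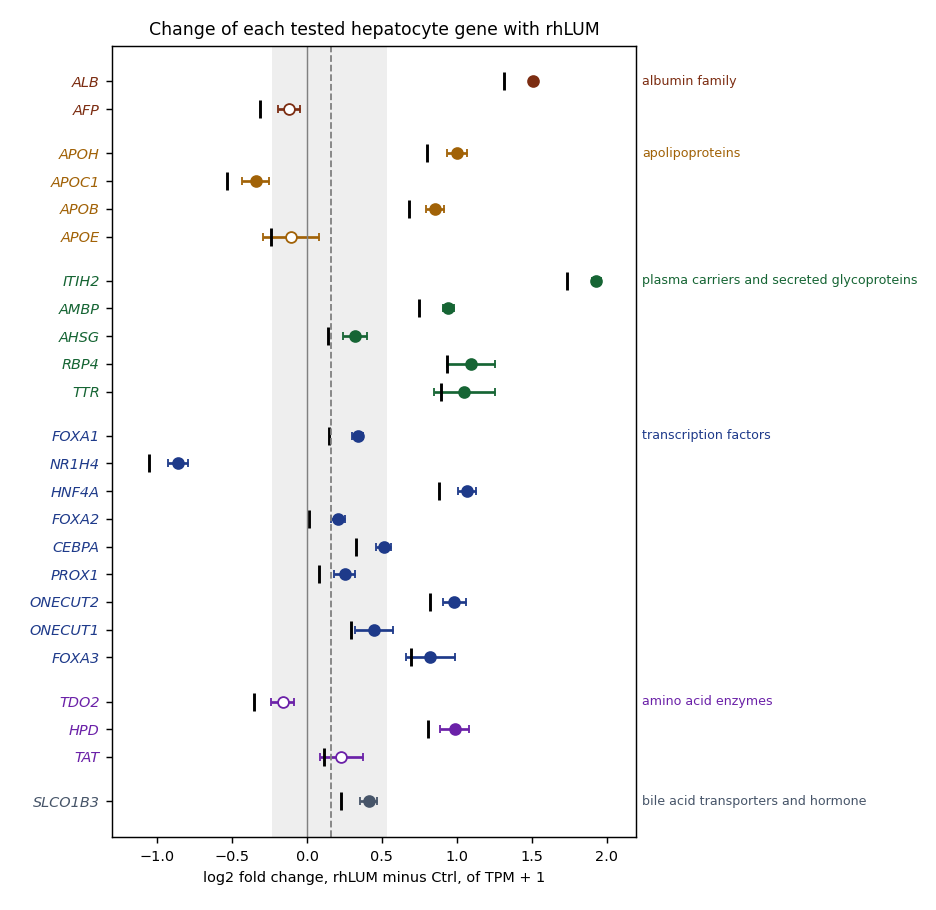
Log2 fold change of TPM + 1, rhLUM minus Ctrl, of each of the 24 tested genes with its standard error, filled where the limma adjusted p was under 0.05, with a black tick for the change after median-of-ratios scaling. The dashed line marks the median of all tested genes at 0.16 and the grey band their middle range from -0.23 to 0.53. ITIH2 at 1.93 and ALB at 1.51 lie farthest to the right, and NR1H4 at -0.86 farthest to the left.

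Of the transcription factors, 9 of 11 were tested, and 8 rose while 1, the bile acid receptor NR1H4, fell. Median-of-ratios scaling left 5 higher and 1 lower. Of all tested genes, 44.5% were higher and 22.3% lower, and 32.7% and 32.5% after that scaling. HNF4A, on chromosome 20 at 44355700 to 44434596 (GRCh38, plus strand), stood at 26.0, 25.6 and 26.1 TPM in rhLUM libraries, against 10.9, 12.4 and 12.2 TPM in Ctrl libraries. The rhLUM values were close to each other and more than double every one of the Ctrl values. On the log2 scale it changed by 1.07 (SE 0.06, limma adjusted p = 4.57e-06), and 0.88 after scaling. The tables give 1 total per gene, so the fetal and adult promoters of HNF4A cannot be told apart. The antisense gene HNF4A-AS1 within it was at 0 in all 6 libraries.

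The FOXA factors, which bind nucleosomal DNA early in liver development, rose by unequal amounts. FOXA3, the lowest of them, was at 2.69, 3.66 and 2.28 TPM in rhLUM libraries, against 1.15, 1.04 and 1.32 TPM in Ctrl libraries (log2 fold change 0.82, SE 0.16, limma adjusted p = 0.00314). FOXA1 was at 40.4, 38.6 and 39.1 TPM in rhLUM libraries, against 31.3, 30.5 and 31.02 TPM in Ctrl libraries (log2 fold change 0.34, SE 0.04, limma adjusted p = 1.58e-04). FOXA2 was at 22.9, 23.3 and 24.4 TPM in rhLUM libraries, against 20.3, 19.8 and 20.7 TPM in Ctrl libraries (log2 fold change 0.21, SE 0.05, limma adjusted p = 0.0054). The groups of all 3 genes stood apart. GENCODE places the coding gene AL121722.1 over 3257 bases of FOXA2 on the same strand, so reads may be shared. After median-of-ratios scaling FOXA3 changed by 0.70, FOXA1 by 0.14 (adjusted p = 0.0118) and FOXA2 by 0.02 (adjusted p = 0.773), and with upper quartile scaling FOXA2 turned to -0.02.

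ONECUT2 and ONECUT1, cut-homeodomain factors, and PROX1, a homeodomain factor of hepatoblast migration in mice, were among the lower-level genes. ONECUT2 was at 6.02, 6.12 and 6.44 TPM in rhLUM libraries, against 2.64, 2.66 and 2.62 TPM in Ctrl libraries (log2 fold change 0.98, SE 0.08, limma adjusted p = 2.71e-05). ONECUT1 was at 4.18, 4.39 and 4.04 TPM in rhLUM libraries, against 2.94, 3.36 and 2.25 TPM in Ctrl libraries (log2 fold change 0.44, SE 0.13, limma adjusted p = 0.0168). PROX1 was at 6.71, 7.36 and 7.11 TPM in rhLUM libraries, against 5.63, 6.14 and 5.56 TPM in Ctrl libraries (log2 fold change 0.25, SE 0.07, limma adjusted p = 0.0177). None of these groups overlapped, but the calls of ONECUT1 and PROX1 were near the threshold. Without rhLUM replicate B the adjusted p was 0.0517 for ONECUT1 and 0.0551 for PROX1. For PROX1 it was also 0.0565 without Ctrl replicate A and 0.0593 without Ctrl replicate C. With no minimum TPM it was 0.0522 for ONECUT1. After median-of-ratios scaling it was 0.082 for ONECUT1 and 0.366 for PROX1, with changes of 0.29 and 0.08.

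CEBPA, the C/EBP factor of the differentiated, non-dividing hepatocyte, stood at 21.9, 20.95 and 20.2 TPM in rhLUM libraries, against 14.2, 14.5 and 14.7 TPM in Ctrl libraries (log2 fold change 0.51, SE 0.05, limma adjusted p = 7.79e-05). A relative, CEBPG, was also called higher, at 0.27 (limma adjusted p = 9.94e-04), but not after median-of-ratios scaling (0.07, limma adjusted p = 0.179). Its relatives CEBPB and CEBPD, which are induced by inflammatory signals in liver, moved the other way from CEBPA. CEBPB was at 56.7, 53.6 and 54.0 TPM in rhLUM libraries, against 107, 107 and 108 TPM in Ctrl libraries (log2 fold change -0.96, SE 0.03, limma adjusted p = 6.33e-07). CEBPD was at 22.6, 18.3 and 19.5 TPM in rhLUM libraries, against 80.3, 77.6 and 83.2 TPM in Ctrl libraries (log2 fold change -1.95, SE 0.08, limma adjusted p = 1.10e-06). CEBPA stood at 0.387, 0.391 and 0.375 of the CEBPB level in rhLUM libraries, against 0.132, 0.136 and 0.136 in Ctrl libraries, a ratio that was chosen after the values were seen.

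NR1H4, on chromosome 12 at 100473708 to 100564413 (GRCh38, plus strand), was the member that fell most. It stood at 29.9, 34.2 and 32.6 TPM in rhLUM libraries, against 64.1, 56.2 and 57.8 TPM in Ctrl libraries, with a wide gap between the groups. It changed by -0.86 on the log2 scale (SE 0.07, limma adjusted p = 2.71e-05), and -1.06 after median-of-ratios scaling. NR0B2, the repressor SHP that NR1H4 induces in liver, was at 0.07, 0.07 and 0 TPM in rhLUM and 0, 0.05 and 0 TPM in Ctrl. FGF19, a hormone induced by NR1H4 in the intestine, was at 0 in rhLUM libraries and at 0.02, 0 and 0 TPM in Ctrl libraries. NR5A2, another nuclear receptor, was at 0.60, 0.39 and 0.94 TPM in rhLUM and 0.60, 0.52 and 0.44 TPM in Ctrl.

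By mean level the order of the 5 most abundant factors differed between the groups. In rhLUM libraries it was FOXA1, NR1H4, HNF4A, FOXA2 and CEBPA, at 39.4, 32.2, 25.9, 23.5 and 21.04 TPM. In Ctrl libraries it was NR1H4, FOXA1, FOXA2, CEBPA and HNF4A, at 59.4, 30.96, 20.3, 14.5 and 11.8 TPM. HNF4A was above FOXA2 in every rhLUM library, with ratios of 1.14, 1.10 and 1.07, and below it in every Ctrl library, with ratios of 0.539, 0.623 and 0.591. HNF4A stood at 0.870, 0.749 and 0.798 of the NR1H4 level in rhLUM libraries, against 0.170, 0.220 and 0.212 in Ctrl libraries. Both ratios were chosen after the values were seen. Summed, the 11 factors came to 163 ± 1.597 TPM in rhLUM and 150 ± 3.47 TPM in Ctrl (SD, n = 3 each).

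**Figure D3:**
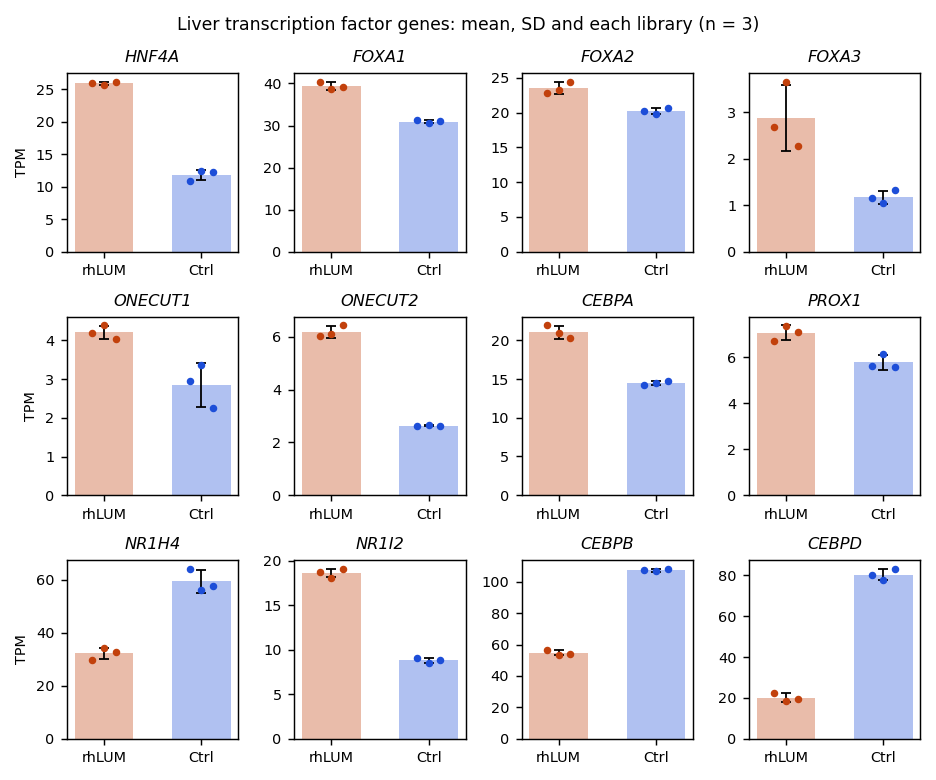
TPM of the 9 tested transcription factors among the members and of NR1I2, CEBPB and CEBPD, with bars for group means from 0, whiskers for the SD of 3 libraries and a point for each library, rhLUM left of Ctrl. HNF4A averaged 25.9 TPM in rhLUM and 11.8 TPM in Ctrl, while NR1H4, CEBPB and CEBPD were lower in rhLUM.

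Beyond the members, 25 of 30 other liver transcription factor genes were tested, and 13 were higher and 4 lower, with a median change of 0.25. Median-of-ratios scaling left 8 higher and 7 lower, so the balance depends on the scaling. The shares of all genes were 44.5% higher and 22.3% lower, and 32.7% and 32.5% after that scaling. NR1I2, the xenobiotic receptor PXR, rose to 18.7, 18.1 and 19.1 TPM in rhLUM libraries, against 9.13, 8.57 and 8.81 TPM in Ctrl libraries (log2 fold change 1.00, limma adjusted p = 3.78e-06). ATF5, a stress-responsive factor abundant in liver, was at 51.7, 49.5 and 51.8 TPM in rhLUM libraries, against 116, 127 and 124 TPM in Ctrl libraries (log2 fold change -1.25, limma adjusted p = 5.22e-07).

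Enzymes of amino acid breakdown are a late mark of the mature hepatocyte, and 3 of the 4 members were tested. HPD, which acts on the product of TAT in the breakdown of tyrosine, stood at 17.1, 15.3 and 14.4 TPM in rhLUM libraries, against 8.15, 7.55 and 6.44 TPM in Ctrl libraries (log2 fold change 0.99, SE 0.10, limma adjusted p = 8.91e-05). TAT, the tyrosine aminotransferase, was at 1.73, 1.34 and 1.66 TPM in rhLUM and 1.28, 1.01 and 1.30 TPM in Ctrl. Its rhLUM libraries were all above its Ctrl libraries, but the change of 0.23 did not pass (SE 0.14, limma adjusted p = 0.197). TDO2, which opens the ring of tryptophan, was at 18, 16.6 and 15.3 TPM in rhLUM and 20.2, 17.4 and 18.7 TPM in Ctrl. Its groups overlapped, with a change of -0.16 (limma adjusted p = 0.0994), and after median-of-ratios scaling it was called lower at -0.35 (adjusted p = 0.00605).

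Among 17 tested of 23 other amino acid enzymes, 8 were higher and 3 lower, with a median change of 0.02, and 7 were higher and 5 lower after median-of-ratios scaling. The counts before that scaling lie near the shares of all genes, 44.5% higher and 22.3% lower. HGD, the step after HPD, stood at 137, 121 and 120 TPM in rhLUM libraries, against 80.8, 91.0 and 87.9 TPM in Ctrl libraries (log2 fold change 0.54, limma adjusted p = 2.55e-04). GLUL, which makes glutamine, changed by 0.77 (limma adjusted p = 2.02e-06). GLS2, the liver-type glutaminase and a member, was at 0.10, 0 and 0.18 TPM in rhLUM and at 0 in Ctrl.

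SLCO1B3, a transporter of the hepatocyte's blood side that takes up bile acids and drugs, was the only tested member of its group. It stood at 16.4, 17.8 and 17.1 TPM in rhLUM libraries, against 11.98, 12.8 and 13.1 TPM in Ctrl libraries, with no overlap (log2 fold change 0.41, SE 0.06, limma adjusted p = 5.34e-04). The annotation places another coding gene over it on the same strand, so reads may be shared. Its close relatives SLCO1B1 and SLCO1B7 were at most 0.36 and 0.74 TPM. SLC10A1, the sodium-dependent bile acid carrier of mature hepatocytes, was at 0.07, 0.03 and 0 TPM in rhLUM and at 0 in Ctrl.

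In the wider bile acid list 13 of 20 genes were tested, with 5 higher and 4 lower and a median change of 0.15 (5 higher and 5 lower after median-of-ratios scaling). Over all genes the shares were 44.5% higher and 22.3% lower before that scaling. BAAT, which joins bile acids to glycine and taurine, stood at 104, 102 and 101 TPM in rhLUM libraries, against 51.4, 49.8 and 51.8 TPM in Ctrl libraries (log2 fold change 0.99, limma adjusted p = 4.26e-07). FGFR4, the liver receptor for FGF19, changed by 0.69 (limma adjusted p = 8.81e-05), and ABCC2, an export pump of the bile side, by 0.32 (limma adjusted p = 1.20e-05). SLC51A, a subunit of the bile acid exporter of the blood side, was at 14.2, 13.3 and 17.9 TPM in rhLUM libraries, against 46.5, 38.7 and 42.3 TPM in Ctrl libraries (log2 fold change -1.44, limma adjusted p = 2.82e-05). CYP7A1, the rate-limiting enzyme of bile acid synthesis, was at 0 in rhLUM and at 0.20, 0.05 and 0 TPM in Ctrl.

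Other lipoprotein genes, 17 tested of 24 found, had 5 higher and 6 lower and a median change of -0.17 (4 higher and 8 lower after median-of-ratios scaling). Over all genes the shares were 44.5% higher and 22.3% lower before that scaling, and 32.7% and 32.5% after it. SCARB1, the receptor for high density lipoprotein, changed by 0.66 (limma adjusted p = 3.61e-06). APOL1 and APOL2, apolipoproteins of the L group, changed by -0.52 and -0.45 (limma adjusted p = 1.22e-06 and 4.21e-05). ANGPTL4, an inhibitor of lipoprotein lipase, changed by -0.85 (limma adjusted p = 6.85e-06).

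Other secreted proteins of hepatocytes, 9 tested of 20, also split, with 3 higher and 4 lower before and after scaling and a median change of -0.29. Before scaling 44.5% of all genes were higher and 22.3% lower. TF, the iron carrier transferrin, stood at 233, 256 and 263 TPM in rhLUM libraries, against 59.3, 66.3 and 62.1 TPM in Ctrl libraries (log2 fold change 1.99, limma adjusted p = 3.08e-07). SERPINA6, the carrier of cortisol, changed by 1.32 (limma adjusted p = 5.47e-06). SERPINA1, alpha-1-antitrypsin, was at 213, 208 and 203 TPM in rhLUM libraries, against 380, 381 and 377 TPM in Ctrl libraries (log2 fold change -0.87, limma adjusted p = 2.88e-07). RARRES2, the chemoattractant chemerin, was at 4.94, 2.61 and 4.41 TPM in rhLUM libraries, against 27.1, 23.6 and 27.9 TPM in Ctrl libraries (log2 fold change -2.48, limma adjusted p = 1.99e-05).

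**Figure D4:**
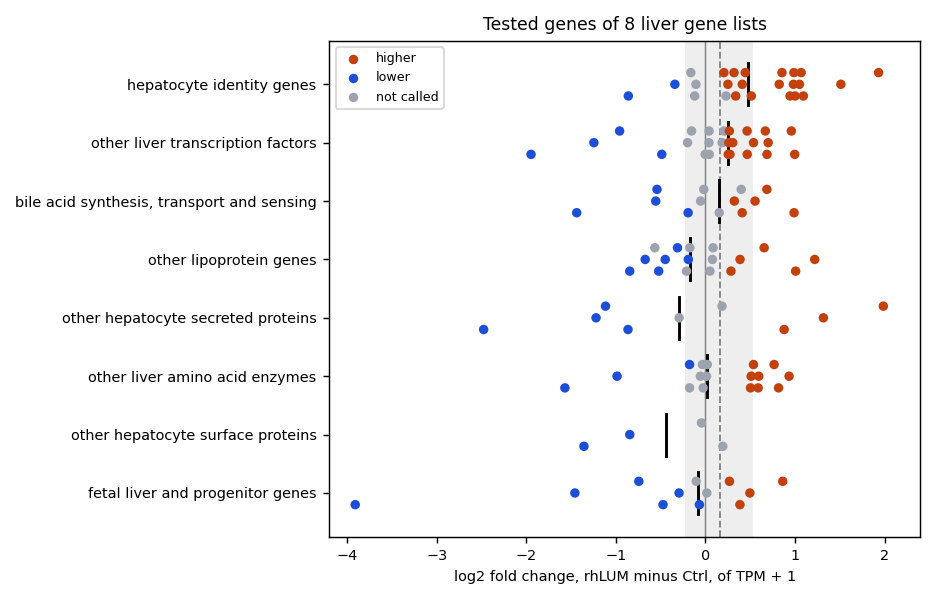
Log2 fold change of TPM + 1, rhLUM minus Ctrl, of every tested gene in 8 liver gene lists, with orange points called higher, blue called lower and grey not called by limma, and a black bar for each list's median. The dashed line and grey band give the median and middle range of all tested genes, of which 44.5% were called higher and 22.3% lower. The hepatocyte identity genes have a median of 0.48 and other hepatocyte secreted proteins one of -0.29, and each list other than the surface proteins holds genes called in both directions.

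The 15 members under the minimum were at most 1.40 TPM in any library, a level at which changes are known least precisely. Of the 15, 14 were above 0 TPM in at least 1 library. Their groups did not overlap for 4 of the 14, and the same was true of 15.7% of all untested genes above 0 TPM in some library. APOA1, the main protein of high density lipoprotein, was at 0.95, 1.28 and 1.40 TPM in rhLUM libraries, against 0.34, 0.33 and 0.30 TPM in Ctrl libraries, and it was higher by limma when no minimum was set (log2 fold change 0.73, adjusted p = 0.00279). APOM, a carrier of sphingosine phosphate, was at 1.29, 1.00 and 1.22 TPM in rhLUM and 0.89, 0.47 and 0.64 TPM in Ctrl, and did not pass (adjusted p = 0.0742 with no minimum). It overlaps BAG6 on the opposite strand, which stood at 66.5 to 74.3 TPM in rhLUM and 62.7 to 64.5 TPM in Ctrl, and whether counting used strand was not given in the sources used here. HRG, histidine-rich glycoprotein, was at 0.20, 0.17 and 0.13 TPM in rhLUM and 0.30, 0.30 and 0.43 TPM in Ctrl (adjusted p = 0.0534 with no minimum). ITIH3, described above, was the fourth.

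The rest of the untested members overlapped between groups or were at 0. APOA2, a second protein of high density lipoprotein, was at 0, 0 and 0.25 TPM in rhLUM and 0.59, 0.54 and 0 TPM in Ctrl. APOC3, an inhibitor of triglyceride clearance, was at 0.19, 0 and 0.50 TPM in rhLUM and 0.29, 0.28 and 0.49 TPM in Ctrl. HPX, the heme scavenger hemopexin, was at 1.36, 0.74 and 0.47 TPM in rhLUM and 0.73, 1.37 and 0.89 TPM in Ctrl. VTN, the adhesion protein vitronectin, was at 0.40, 0.22 and 0.29 TPM in rhLUM and 0.86, 0.20 and 0.50 TPM in Ctrl. GC, APOA2, APOC3, VTN, ITIH1 and SLC10A1 are all abundant in normal liver, so these xenografts carried part of the hepatocyte set and lacked or nearly lacked another part in both groups.

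Around each of 4 sets of members, genes on the same stretch of chromosome were called in both directions. After median-of-ratios scaling, however, the list around APOE and APOC1, which includes these members, had 0 higher and 4 lower of 7 tested. The 4 lower were BCAM, RELB, CLASRP and the member APOC1 itself. Calls in both directions are common in any set of genes here, with 44.5% of all genes higher and 22.3% lower. On the chromosome of ALB, ANKRD17 changed by -0.19 and RASSF6 by 0.34, and SLC4A4, a bicarbonate transporter beyond GC, by 1.19 (limma adjusted p = 0.026, 0.0014 and 2.67e-06). SLC4A4 ends at 71572087 and ALB begins at 73397114, so SLC4A4 is not next to ALB. AFM, the albumin relative beyond AFP, was at 1.95, 2.15 and 2.10 TPM in rhLUM and 2.12, 1.16 and 1.91 TPM in Ctrl (log2 fold change 0.18, limma adjusted p = 0.355). Around APOA1 and APOC3, APOA4 was not called at -0.17, ZPR1 changed by 0.93, PAFAH1B2 by 0.68, SIK3 by 0.65 and PCSK7 by -0.54. Around APOE and APOC1, BCAM changed by -0.98, CLASRP by -0.81, RELB by -0.67 and TOMM40 by 0.26, and CLPTM1 was not called at 0.11. Median-of-ratios scaling took the call from TOMM40 (0.06, limma adjusted p = 0.189). Around ITIH1 and ITIH3, PBRM1 changed by 0.91, NT5DC2 by 0.84 and NEK4 by 0.46, while SPCS1 at 0.06, GLT8D1 at 0.07 and TMEM110 at 0.30 were not called. BUD13, SIDT2, TAGLN and GNL3 passed at 0.21, 0.31, 0.26 and 0.13 and, with ANKRD17, lost their calls when single libraries were left out. Median-of-ratios scaling also took the calls of BUD13 (0.02, limma adjusted p = 0.764), SIDT2 (0.14, 0.257), TAGLN (0.07, 0.445) and GNL3 (-0.07, 0.136). It called SPCS1 and GLT8D1 lower, at -0.14 and -0.13 (limma adjusted p = 0.00724 and 0.0398). Without rhLUM replicate A the adjusted p was 0.0612 for BUD13, 0.0781 for SIDT2 and 0.0632 for TAGLN, and without rhLUM replicate B it was 0.0604 for GNL3 and 0.0805 for ANKRD17. Without rhLUM replicate C it was 0.051 for SIDT2, 0.0704 for TAGLN and 0.0601 for GNL3. Without Ctrl replicate A it was 0.0696 for BUD13, 0.0808 for TAGLN and 0.0663 for ANKRD17, and without Ctrl replicate B 0.0539, 0.0808 and 0.0775 for these genes in the same order. Without Ctrl replicate C it was 0.0842 for SIDT2 and 0.0548 for GNL3.

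**Figure D5:**
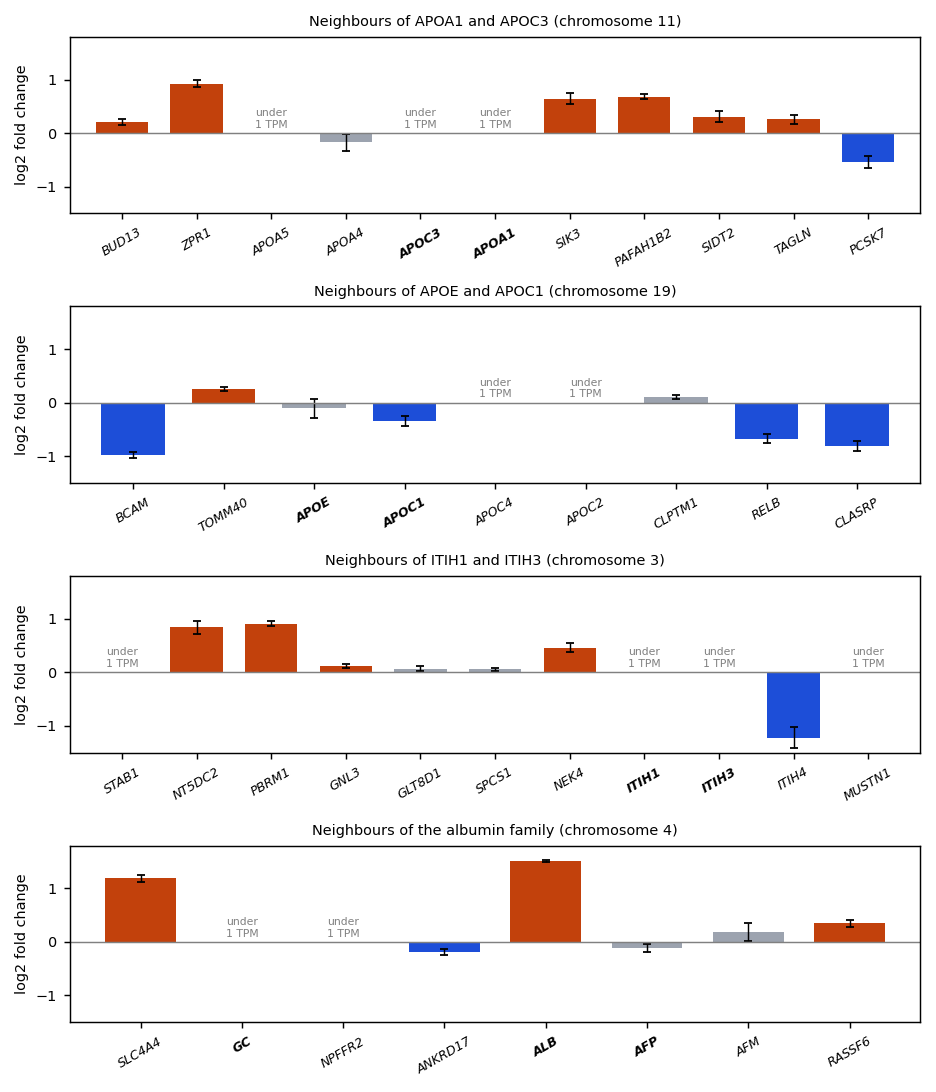
Log2 fold change of TPM + 1, rhLUM minus Ctrl, with its standard error, of genes in chromosomal order around 4 sets of members (bold), orange where called higher, blue where called lower and grey where not called by limma, with genes under 1 TPM marked as such and TMEM110, which lacked a position, left out. Among the listed genes ALB at 1.51 stands between ANKRD17 at -0.19 and AFP at -0.12. Gaps between listed genes reach 925308 bases. Of all tested genes, 44.5% were called higher and 22.3% lower.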

How the data were processed

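RNA of 6 MHCC97L xenograft libraries was measured, 3 rhLUM and 3 Ctrl, grouped by the labels. Per the labels' protocols, poly-A RNA went through the KAPA mRNA HyperPrep kit with 10 PCR cycles and was read as paired ends of 151 bases. STAR 2.7.8, RSEM 1.2.31 and the build GRCh38 are named in the submitters' processing notes. The sources used here do not state the annotation release, the strand setting or any removal of host reads, so host reads that resemble human transcripts, and antisense partners, can add to a value. The values the authors deposited are TPM, per the file headers, in 1 table for each library with gene symbols only. TPM keeps no depth, so no counting interval can be given. A total of 2210 rows under 313 shared symbols were left out.

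The test was limma 3.58.1 (R 4.3.3) on log2(TPM + 1), with a variance trend and group as the sole term (4 residual degrees of freedom), over genes that averaged 1 TPM or more. Tests were two-sided, with Benjamini-Hochberg adjustment over all 14781 genes and a threshold of 0.05. Fold changes on this scale understate those of low genes. The labels name no batch or date, so no values within batches could be given. The letters A, B and C were not used as pairs in the test, since the labels do not say if they pair the groups. A check is given with the alternatives. Alternatives were 3 other scalings, another pseudocount, other minimums, no trend, a test against a fold change of 1.2, a replicate block and leaving out each library.

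The members and lists were chosen with earlier results of these data known. Genes named were all members, up to 4 genes with the smallest p past the threshold of each list, and every gene with at least 1 TPM on the lists of chromosomal neighbours. ITIH4, CYP7A1, GPC3, SLC2A2, the marker genes and the ratios were chosen after their values were seen. ANGPTL8 and NECTIN2 were not found in the tables. A few genes under this rule are not reported here. Positions and overlaps came from GENCODE release 29 of GRCh38, matched by symbol (all 39 members), and promoters from RefSeq (GRCh38.p14).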

Additional observations from a re-analysis of the deposited data

How the results depend on the processing

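The count of 18 members higher with rhLUM held within 13 to 18 under every alternative: 14 with median-of-ratios and with upper quartile scaling, 16 rescaled without mitochondrial genes, 13 in the test against a fold change of 1.2, 16 to 18 on leaving out each library, and 18 with a pseudocount of 0.1, with no minimum, with at least 1 TPM in 3 or more libraries and without the trend. With no minimum the 18 were not the same genes, as ONECUT1 lost its call (limma adjusted p = 0.0522) and APOA1 gained one. The count of 2 lower was 4 with median-of-ratios scaling, 4 with upper quartile scaling and 4 without mitochondrial genes. It was 3 with no minimum, 1 in the test against a fold change of 1.2, and 2 on leaving out each library. Same-letter libraries deviated together with r = 0.029, -0.023 and 0.084, and libraries of different letters with r from -0.084 to 0.051. With so few libraries in a group these values cannot decide whether the letters pair the groups. The replicate block gave 18 members higher and 2 lower, and 6429 and 3219 of all genes against 6571 and 3299. With the block the limma adjusted p was 0.0535 for ANKRD17 and 0.0502 for BUD13, which lost their calls, and 0.0385 for TMEM110, which gained one. Over all genes, median-of-ratios scaling called 4827 higher and 4797 lower, upper quartile scaling 4527 and 5117, and the test against a fold change of 1.2 called 4190 and 1811. Changes that turned sign were APOE (0.0504 without Ctrl replicate A, range -0.228 to 0.0504 on leaving out each library), FOXA2 (-0.0192) and BUD13 (-0.0119) with upper quartile scaling, and 4 neighbours under scaling. CLPTM1 was -0.0905 with median-of-ratios scaling, -0.127 with upper quartile scaling and -0.00095 without mitochondrial genes, GLT8D1 -0.125, -0.161 and -0.038, SPCS1 -0.142, -0.178 and -0.0517, and GNL3 -0.0712 and -0.108 with the 2 scalings. The cause was not tested. The difference in the members' share of TPM was 0.0881 percentage points, 0.0959 without mitochondrial genes and 0.0344 without ALB. The TPM tables hold no depth, so what depth limits could not be given.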

Other observations

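Genes of the fetal liver and of liver progenitors were called in both directions. Of 18 such genes 12 were tested, with 4 higher and 6 lower and a median change of -0.09, and median-of-ratios scaling left 3 higher and 8 lower. Over all genes 44.5% were higher and 22.3% lower, and 32.7% and 32.5% after that scaling. SPINK1, a trypsin inhibitor raised in many liver cancers, was at 31.2, 33.5 and 31.3 TPM in rhLUM libraries, against 479, 510 and 498 TPM in Ctrl libraries (log2 fold change -3.91, SE 0.04, limma adjusted p = 4.90e-09). PROM1, which encodes the surface protein CD133, was at 0.14, 0.22 and 0.05 TPM in rhLUM libraries, against 2.07, 2.4 and 1.9 TPM in Ctrl libraries, and reached the minimum for the test through the Ctrl libraries alone. IGF2BP1, a fetal RNA-binding protein, was at 22.7, 20.3 and 23.8 TPM in rhLUM libraries, against 10.3, 12.3 and 12.95 TPM in Ctrl libraries (log2 fold change 0.86, limma adjusted p = 1.62e-04). H19, an imprinted noncoding RNA of the fetal liver, was at 122, 116 and 108 TPM in rhLUM libraries, against 78.7, 80.7 and 85.1 TPM in Ctrl libraries (log2 fold change 0.50, limma adjusted p = 1.05e-04). GPC3, a proteoglycan of fetal liver and liver cancer, was at most 0.29 TPM in any library.

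Of 12 other surface proteins of hepatocytes 4 were tested, beside 44.5% higher and 22.3% lower of all genes. None of the 4 was called higher and 2 were called lower, before and after median-of-ratios scaling. These were the 2 subunits of the asialoglycoprotein receptor, which clears plasma glycoproteins. ASGR1 was at 1.89, 1.79 and 1.48 TPM in rhLUM libraries, against 3.80, 3.93 and 3.90 TPM in Ctrl libraries (log2 fold change -0.85, limma adjusted p = 3.14e-04). ASGR2 was at 4.41, 3.05 and 4.65 TPM in rhLUM libraries, against 11.7, 11.7 and 11.96 TPM in Ctrl libraries (log2 fold change -1.36, limma adjusted p = 7.21e-05). SLC2A2, the glucose transporter of hepatocytes, was at most 0.06 TPM in any library.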
